A study of Zea mays with 12 samples.

Results

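A set of 139 maize gene models differed at least 2-fold in the same direction between seeds of the transgenic line L100 and seeds of wild-type Q319 at both developmental stages sampled, 15 and 10 days after pollination (DAP). Of these members, 87 were higher and 52 were lower in L100. They were taken from 20023 gene models whose group mean was at least 17 in each of the 4 groups, out of 41430 models in all. The scale is the deposited normalized signal, which is an estimated read count per gene model multiplied by 1 factor per library. A member had to have an L100 mean at least 2 times, or at most 0.5 times, the wild-type mean at both stages, and within each stage every L100 library had to lie beyond every wild-type library. The members were thus chosen by the measured line difference. Its size is given below as a description, and edgeR calls for it are counted without being read as support. Stage differences within a line and positions on the chromosomes were not used to choose them.

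Whole seeds were sampled in 4 groups of 3 RNA-seq libraries: L100 at 15 DAP, wild type at 15 DAP, L100 at 10 DAP and wild type at 10 DAP. The wild type was the maize inbred line Q319. The transgene carried by L100, its promoter, the number of transformation events behind it and any crosses to Q319 are not stated in the labels. Nothing in the labels ties a library to a plant or ear, and the p-values below therefore reflect the spread among these libraries alone, which may be technical. In a whole seed, fewer cells of a type and less RNA per cell cannot be told apart.

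A maize seed at these ages is mostly endosperm, the tissue that fills with starch and storage protein, around a growing embryo and under a maternal coat. Endosperm is short of oxygen as it fills, and alcohol dehydrogenase allows fermentation there. KNOX homeobox genes are known for keeping shoot meristem cells undifferentiated, and in the seed they are expressed in the embryo. Lipoxygenases start the synthesis of oxylipins from polyunsaturated fatty acids, plastid desaturases make such fatty acids, and chaperones of the heat shock classes keep proteins folded. All of these functions had a member in the set.

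Library totals ranged from 14014035 to 22370566 counts. The summed signal of 9 starchy endosperm marker models was 1425020 to 2077700 in L100 and 1212780 to 1601200 in wild type at 15 DAP, and 40241 to 189133 in L100 and 102150 to 181058 in wild type at 10 DAP, and none of the 9 was at 0 in all libraries. The sum is mostly zein, led by gz27. The non-zein markers varied. The ratio of the L100 mean to the wild-type mean was 0.395 at 15 DAP and 0.555 at 10 DAP for the regulator o2. It was 0.53 and 0.67 for bt2, and 0.657 and 0.656 for sh2. For wx1 it was 0.746 and 0.918, and for the regulator pbf1 1.1 and 0.975. The summed signal of 7 embryo marker models was 30212 to 50850 in L100 at 15 DAP, above the 16210 to 20827 of wild type, and overlapped at 10 DAP, with 3801 to 10970 in L100 and 5125 to 8504 in wild type. At 15 DAP the embryo sum was mostly ole1, glb2 and the glb1 model GRMZM2G067919. Their ratios of the L100 mean to the wild-type mean were 1.84, 18.2 and 1.41 at 15 DAP, and 0.849, 1.06 and 0.707 at 10 DAP. The embryo list held 1 member, kn1. The part of embryo and endosperm shares in the results below was not tested. The third replicates of L100 stood apart for many members, as described below. Without L100 10 DAP replicate 3 the rule found 140 higher and 71 lower models, of which 83 and 43 were among the members. Without L100 15 DAP replicate 3 it found 101 and 48, of which 78 and 39 were among the members. Leaving out any library also eases the non-overlap condition. With each library left out, higher models numbered 87 to 140 and lower models 48 to 71.

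The 87 higher members were 0.435% and the 52 lower members 0.26% of the models at or above the floor. Without the 2-fold bound, L100 and wild-type libraries were fully separate at both stages in 540 models on the higher side (2.7%) and in 665 on the lower side (3.32%). At 15 DAP alone 630 models met the rule on the higher side and 362 on the lower side. At 10 DAP alone the numbers were 388 and 242. The higher members were thus 13.8% of those higher at 15 DAP and 22.4% of those higher at 10 DAP, and the lower members were 14.4% and 21.5% of the corresponding lower sets. Opposite directions were met by 6 models higher at 15 DAP and lower at 10 DAP and by 4 models of the reverse pattern. Whether these are fewer than the stage totals alone would give was not tested.

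Among the higher members the L100 to wild-type ratio ran from 2.03 to 29.1 at 15 DAP, with a median of 3.07, and from 2.01 to 47.2 at 10 DAP, with a median of 3.31. It was below 3 in 39 members at 15 DAP and in 36 at 10 DAP, and 5 or more in 15 members at each stage. Among the lower members the wild-type mean exceeded the L100 mean 2.0 to 11.8 times at 15 DAP, with a median of 2.8, and 2.0 to 13.9 times at 10 DAP, with a median of 2.99. In edgeR's quasi-likelihood test over 24941 genes, 54 of the 87 higher members had an adjusted p under 0.05 for the line difference at 15 DAP, where 3.57% of all tested genes were called higher, and 48 did at 10 DAP, where 1.76% were. Of the 52 lower members 33 were called at 15 DAP, where 3.09% of all tested genes were called lower, and 29 at 10 DAP, where 1.24% were. Nothing is read from these counts, since the rule used the same contrasts.

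**Figure D1:**
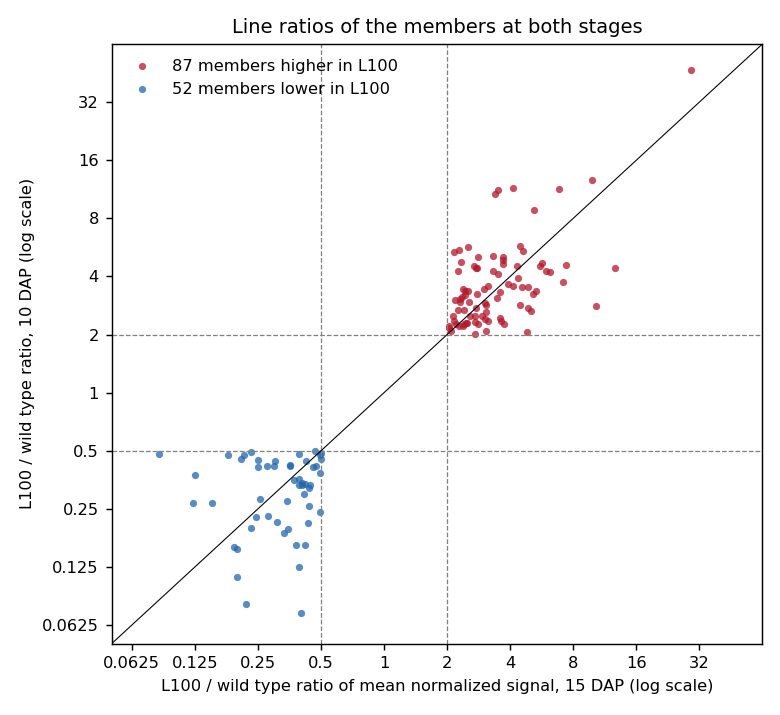
Ratio of the L100 mean to the wild-type mean of the normalized signal at 15 DAP (x axis) and 10 DAP (y axis), both on log scales, for the 87 higher (red) and 52 lower (blue) members; dashed lines mark the bounds of 2 and 0.5 and the solid line equal ratios. The empty bands between the bounds follow from the rule, and 1 model, with ratios of 29.1 and 47.2, lies far from the others.

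The member that encodes alcohol dehydrogenase 1, adh1 (GRMZM2G442658, chr1:274050423-274054108), was about 2-fold lower in L100. Positions here and below are those of the deposited tables, for which the processing notes name the B73 RefGen_v3 build. The adh1 signal was 15370, 17194 and 10581 in the L100 libraries and 22653, 33510 and 35694 in the wild-type libraries at 15 DAP. At 10 DAP it was 7923, 7246 and 8443 in L100, against 17565, 15204 and 14492 in wild type. The means were 14381 ± 3415 in L100 and 30619 ± 6985 in wild type at 15 DAP, and 7871 ± 600 in L100 and 15754 ± 1609 in wild type at 10 DAP (SD, n = 3 each). The wild-type mean exceeded the L100 mean 2.13 times at 15 DAP and 2.0 times at 10 DAP, which places adh1 just inside the bound. L100 at 15 DAP overlapped wild type at 10 DAP. The stage comparison, which the rule did not use, gave a rise at 15 DAP in L100 (log2 difference 0.85, SE 0.21, adjusted p = 0.011 by edgeR) and in wild type (0.96, SE 0.21, adjusted p = 0.0045). No left-out library ended these calls, but scaling by library totals gave an adjusted p of 0.061 in L100.

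The gene fad6 (GRMZM2G078569, chr1:211664472-211671955), named for a plastid omega-6 fatty acid desaturase, was lower in L100 and followed the stages differently from adh1. The model matched 2 reference genes, so the name is less certain than the others. Its signal was 658, 642 and 803 in L100 and 1389, 1572 and 1788 in wild type at 15 DAP. At 10 DAP L100 had 652, 882 and 962, while wild type had 2462, 2432 and 2590. At 15 DAP the means were 701 ± 88.6 in L100 and 1583 ± 200 in wild type, and at 10 DAP 832 ± 161 in L100 and 2495 ± 84.1 in wild type (SD, n = 3 each). Wild type was therefore 2.26 times L100 at 15 DAP and 3.0 times at 10 DAP, and no L100 library of either stage reached a wild-type library. In wild type fad6 fell at 15 DAP (log2 difference -0.65, SE 0.16, adjusted p = 0.0082). In L100 the difference was -0.27 (SE 0.16, adjusted p = 0.25).

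Of the members with a heat shock name 1 was lower and 1 higher in L100. Both were far more abundant at 15 DAP than at 10 DAP in both lines. Members without an informative name were not assigned to families. The small heat shock protein gene hsp22 (GRMZM2G007729, chr4:179852689-179853954) had 5508, 2771 and 6421 in L100 and 32381, 30657 and 19084 in wild type at 15 DAP. At 10 DAP it had 879, 810 and 562 in L100 and 1472, 1895 and 1345 in wild type. The wild-type excess was 5.59-fold at 15 DAP and 2.09-fold at 10 DAP, so hsp22 kept its direction but not its size. It rose at 15 DAP by a log2 difference of 2.69 (SE 0.32, adjusted p = 0.00023) in L100 and 4.12 (SE 0.34, adjusted p = 2.1e-05) in wild type.

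The chaperone gene hsp82 (GRMZM5G833699, chr10:93698361-93700632), of the HSP90 class, went the other way between the lines. Its signal was 7868, 3665 and 8268 in L100 and 3212, 1035 and 549 in wild type at 15 DAP. At 10 DAP it was 394, 336 and 43.7 in L100, against 21.9, 13.3 and 32 in wild type. The ratio was 4.13 at 15 DAP (8.33 without wild type 15 DAP replicate 1) and 11.5 at 10 DAP, and single libraries differed widely within groups: replicate 1 of wild type at 15 DAP lay near L100 replicate 2, and replicate 3 of L100 at 10 DAP lay near wild type. Its rise at 15 DAP was the largest of any member in L100 (log2 difference 4.66, SE 0.86, adjusted p = 0.0036) and in wild type (6.12, SE 0.99, adjusted p = 0.0013). How reads shared by near-identical gene copies were counted is not stated, so levels of single chaperone genes are uncertain to that extent.

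Linker histone H1 packs chromatin, and hon110 (GRMZM2G164020, chr1:288803910-288805585), which carries a histone H1 name, was lower in L100. It had 5085, 5311 and 2534 in L100 and 6830, 11838 and 9547 in wild type at 15 DAP. At 10 DAP the values were 5512, 4810 and 6155 in L100 and 15863, 11817 and 12411 in wild type. The wild-type excess was 2.18-fold at 15 DAP and 2.43-fold at 10 DAP, nearly the same size. Neither stage difference passed the test (log2 -0.37, SE 0.27, adjusted p = 0.35 in L100; -0.51, SE 0.27, adjusted p = 0.18 in wild type).

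Among the lower members, bHLH161 (GRMZM2G045883, chr5:208947901-208970102) carries the name of the bHLH transcription factor family. It had 401, 326 and 194 in L100 and 431, 909 and 934 in wild type at 15 DAP, where L100 replicate 1 lay just under wild-type replicate 1. At 10 DAP it had 311, 319 and 502 in L100 and 1464, 1174 and 762 in wild type. The wild-type means were 2.47 and 3.0 times the L100 means at 15 and 10 DAP.

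The last of the 6 lower members with a reference name, sam2 (GRMZM2G154397, chr2:33120363-33123685), had 1 L100 library close to 0. At 15 DAP L100 replicates 1 and 2 had 641 and 529, and replicate 3 had 0.0232, while wild type had 1841, 3291 and 2605. At 10 DAP L100 had 140, 628 and 227, against 1395, 1113 and 1218 in wild type. Wild type was 6.61 times L100 at 15 DAP, a fold that L100 replicate 3, close to 0, made larger than replicates 1 and 2 alone would give. At 10 DAP wild type was 3.74 times L100, or 6.77 times without L100 10 DAP replicate 2. L100 replicates 1 and 2 at 15 DAP lay below every wild-type library of either stage.

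The KNOX homeobox gene kn1 was higher in L100. For kn1 (GRMZM2G017087, chr1:271407525-271415210), which maintains the shoot meristem, the signal was 70.9, 93.2 and 101 in L100 and 47.3, 19.4 and 48.8 in wild type at 15 DAP. Its 10 DAP signal was 174, 285 and 300 in L100 and 67.8, 83.1 and 96.9 in wild type. Its means were 88.5 ± 15.8 in L100 and 38.5 ± 16.6 in wild type at 15 DAP, and 253 ± 68.7 in L100 and 82.6 ± 14.6 in wild type at 10 DAP (SD, n = 3 each). The ratio was 2.3 at 15 DAP and 3.07 at 10 DAP, and L100 at 15 DAP overlapped the range of wild type at 10 DAP. In L100 kn1 fell at 15 DAP (log2 difference -1.52, SE 0.32, adjusted p = 0.0054). It also fell in wild type (-1.08, SE 0.33, adjusted p = 0.028), but that call ended without wild type 10 DAP replicate 2 (adjusted p = 0.055) or replicate 3 (0.083), or without wild type 15 DAP replicate 2 (0.08). The summed embryo markers, given above, are led by other genes and hold kn1 as a small part. The part of embryo share in the kn1 difference was not tested.

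The lipoxygenase gene lox3 (GRMZM2G109130, chr1:264266297-264271192) had 3301, 3646 and 2564 in L100 and 1603, 971 and 1378 in wild type at 15 DAP. Younger seeds, at 10 DAP, had 3997, 4420 and 5062 in L100 and 1343, 1570 and 2103 in wild type. Group means were 3170 ± 552 in L100 and 1317 ± 320 in wild type at 15 DAP, and 4493 ± 536 in L100 and 1672 ± 390 in wild type at 10 DAP (SD, n = 3 each). The ratios of 2.41 and 2.69 were close to each other, and no L100 library of either stage fell within the wild-type range. Stage differences did not pass the test (log2 -0.52, SE 0.21, adjusted p = 0.097 in L100; -0.34, SE 0.21, adjusted p = 0.25 in wild type).

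Sucrose phosphate synthase makes sucrose phosphate from hexose precursors, and its gene sps1 (GRMZM5G875238, chr8:161465928-161470987) was higher in L100. The values were 715, 519 and 246 in L100 and 208, 78.5 and 159 in wild type at 15 DAP. At 10 DAP they were 371, 448 and 670 in L100, against 127, 78.7 and 85.3 in wild type. This gave means of 493 ± 236 in L100 and 149 ± 65.5 in wild type at 15 DAP, and 496 ± 155 in L100 and 97.1 ± 26.3 in wild type at 10 DAP (SD, n = 3 each). The ratio was 3.32 at 15 DAP and 5.11 at 10 DAP. L100 replicate 3 was the lowest L100 library at 15 DAP and came close to wild-type replicate 1. Between the stages sps1 had a log2 difference of -0.03 (SE 0.41, adjusted p = 0.97) in L100 and 0.62 (SE 0.43, adjusted p = 0.31) in wild type.

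Higher members with a reference name also included MFSP, GNAT15, LOL3 and cyp12. MFSP (GRMZM2G066801, chr1:252863768-252868114) had 98.0, 96.6 and 79.9 in L100 and 43.5, 54.0 and 29.8 in wild type at 15 DAP. Seeds at 10 DAP had 171, 232 and 164 in L100 and 25, 39.9 and 40.9 in wild type. Its ratio was 2.16 at 15 DAP and 5.35 at 10 DAP. In L100 it fell at 15 DAP (log2 difference -1.05, SE 0.26, adjusted p = 0.012), a call that ended without L100 10 DAP replicate 2 (adjusted p = 0.054). In wild type the difference was 0.27 (SE 0.28, adjusted p = 0.5).

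GNAT15 (GRMZM2G099305, chr1:279964538-279966698), named for an acetyltransferase family, had 79.2, 78.2 and 164 in L100 and 36.0, 42.8 and 24.0 in wild type at 15 DAP. The 10 DAP libraries had 101, 174 and 85.7 in L100, against 44.8, 49.9 and 58.7 in wild type, and its ratios were 3.12 and 2.35. LOL3 (GRMZM2G120069, chr1:67061389-67063335) lay nearer the floor, with 46.9, 34.5 and 35.5 in L100 and 11.4, 23.4 and 16.5 in wild type at 15 DAP. Its 10 DAP values were 68.0, 33.0 and 67.7 in L100 and 27.1, 17.7 and 31.1 in wild type, so that its ratios, 2.28 and 2.22, were nearly equal. For cyp12 (GRMZM2G091588, chr2:184817854-184829875) the ratios were 3.9 and 3.66, with 266, 261 and 505 in L100 and 117, 101 and 46.3 in wild type at 15 DAP. At 10 DAP its L100 libraries spread from 197 to 890, above a wild-type range of 119 to 183.

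**Figure D2:**
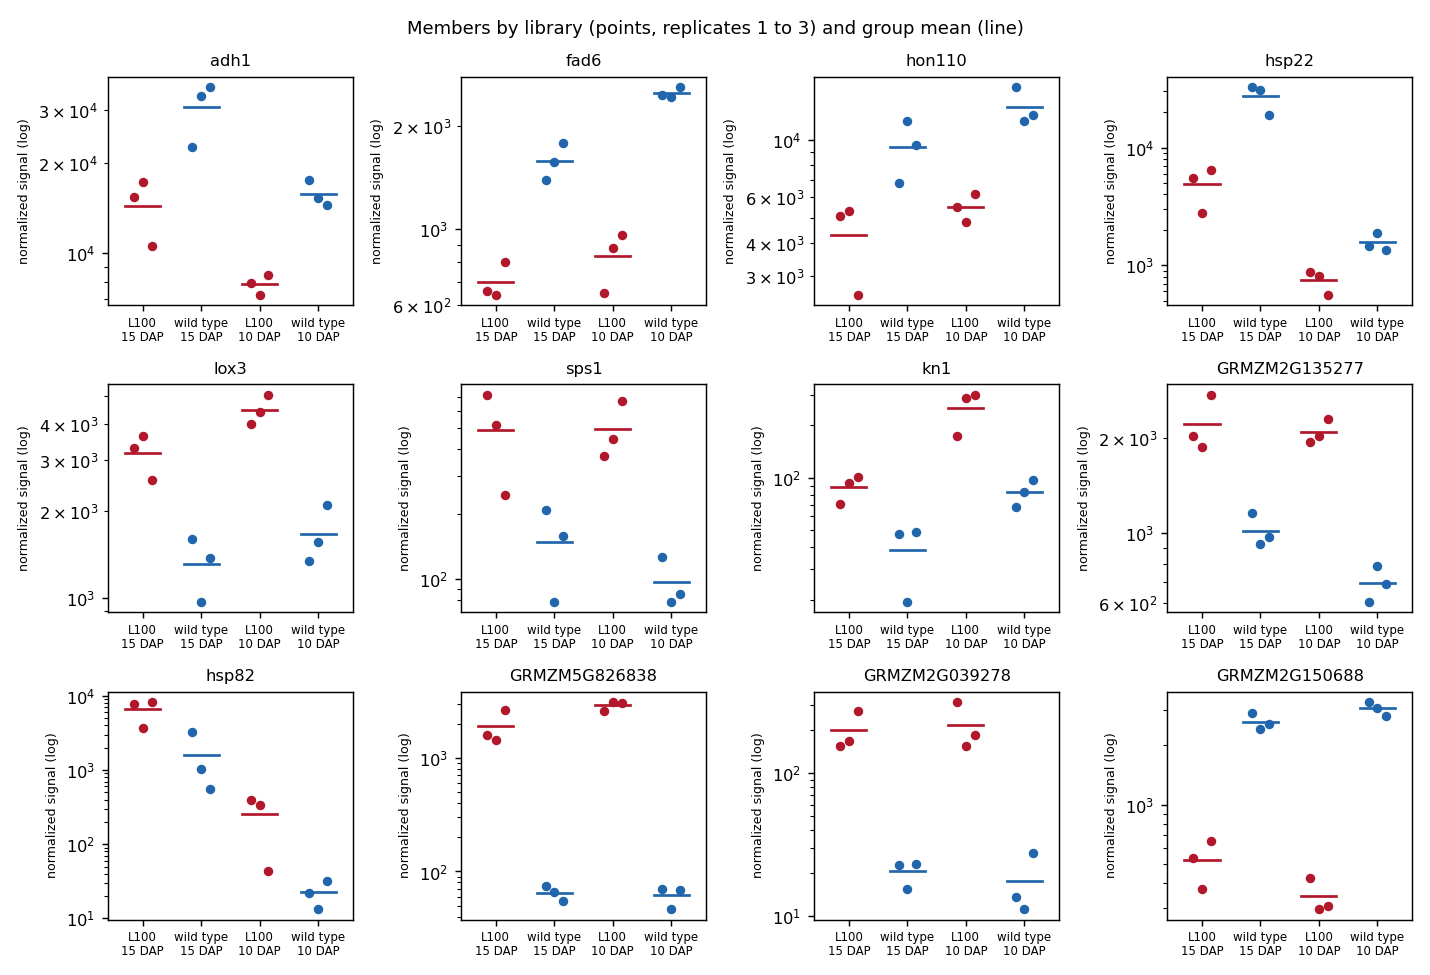
Normalized signal (log scale, a separate range in each panel) of 12 members in L100 (red) and wild type (blue) at 15 and 10 DAP; points are libraries, replicates 1 to 3 from left to right, and lines are group means. The top row holds the lower members adh1, fad6, hon110 and hsp22, and hsp82 shows a wide spread within groups, with 394, 336 and 43.7 in L100 at 10 DAP.

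The members whose smaller ratio of the 2 stages was largest carried no informative name. GRMZM5G826838 (chr1:269549711-269572174) had 1598, 1446 and 2657 in L100 and 74.8, 66.3 and 54.6 in wild type at 15 DAP, a 29.1-fold difference. Younger seeds, at 10 DAP, had 2605, 3103 and 3012 in L100 and 69.9, 46.5 and 68.4 in wild type, a 47.2-fold difference. No library came close to the other line. GRMZM2G039278 (chr1:279058600-279074741) was 9.82 and 12.6 times higher in L100 at 15 and 10 DAP, with L100 libraries between 155 and 316 and wild-type libraries between 11.1 and 27.6. Its neighbour GRMZM2G395728 (chr1:278995823-279000177) was 6.86 and 11.3 times higher, with L100 libraries between 151 and 242 and wild-type libraries between 2.09 and 33.2, and its 10 DAP ratio was 17.5 without wild type 10 DAP replicate 2. AC217050.4_FG001 (chr1:214892152-214897104) was 5.22 and 8.84 times higher, and was the 1 of these 5 models that passed a stage test: in wild type it rose at 15 DAP (log2 difference 0.89, SE 0.22, adjusted p = 0.0091), which ended without wild type 10 DAP replicate 3 (adjusted p = 0.056). Maize_newGene_5741 (chr6:65475875-65477129), 5.67 and 4.68 times higher, was at 0 in wild type 15 DAP replicate 3 and 10 DAP replicate 2 but at 96.9 in wild type 10 DAP replicate 3, under L100 libraries of 134 to 204. Its ratio was 11.7 at 15 DAP without wild type 15 DAP replicate 1 and 32.1 at 10 DAP without wild type 10 DAP replicate 3.

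On the lower side the same rule gave GRMZM2G150688 (chr1:256145786-256158289), with 536, 374 and 657 in L100 and 2903, 2402 and 2554 in wild type at 15 DAP. Seeds at 10 DAP had 425, 295 and 308 in L100 and 3311, 3100 and 2823 in wild type. The wild-type excess was 5.02-fold at 15 DAP and 8.98-fold at 10 DAP, with libraries of each line close together. Its rise at 15 DAP in L100 (log2 difference 0.59, SE 0.20, adjusted p = 0.044) ended with any 1 of 9 libraries left out, and had an adjusted p of 0.16 without L100 15 DAP replicate 3. For 3 further models 1 library of L100 set much of the ratio at 1 stage. GRMZM2G158304 (chr7:173235649-173258304) was lower by 5.18 times at 15 DAP and 6.32 times at 10 DAP, where L100 had 101, 175 and 468, and without L100 10 DAP replicate 3 the 10 DAP fold was 11.4. GRMZM2G123884 (chr1:222648659-222656461) was lower by 5.03 and 6.48 times, with 31.3, 26.5 and 151 in L100 at 15 DAP, and the 15 DAP fold was 12.1 without replicate 3. Maize_newGene_1863 (chr2:7409187-7417165) was lower by 4.31 and 5.04 times, with 1.5, 26.1 and 40.3 in L100 at 10 DAP. Its 10 DAP fold was 8.26 without replicate 3. Replicate 1 was the library apart there, on the low side, and leaving it out would make that fold smaller. GRMZM2G028500 (chr1:270772477-270774121) was lower by 4.55 times at 15 DAP and 12.4 times at 10 DAP. In L100 it had 109, 155 and 31.7 at 15 DAP, against 16.3, 34.7 and 17.1 at 10 DAP, and rose (log2 difference 2.09, SE 0.47, adjusted p = 0.0086). In wild type, with 395, 490 and 463 at 15 DAP and 319, 283 and 244 at 10 DAP, its stage difference was 0.67 (SE 0.41, adjusted p = 0.24).

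The rule for naming by level also gave members with no informative name. On the higher side GRMZM2G135277 (chr2:33632868-33635938) had tight groups, with 2037, 1880 and 2744 in L100 and 1156, 927 and 974 in wild type at 15 DAP. The 10 DAP libraries had 1947, 2027 and 2302 in L100 and 606, 791 and 692 in wild type, and its ratios were 2.18 and 3.0. GRMZM2G028129 (chr7:15013448-15015067) was even at 15 DAP, with 3037, 2794 and 3242 in L100 and 494, 381 and 353 in wild type, but its L100 libraries at 10 DAP were 8091, 3925 and 1276, over 971, 879 and 1043 in wild type, and the 10 DAP ratio of 4.6 was 2.7 without L100 10 DAP replicate 1. On the lower side GRMZM2G034985-2 (chr3:224760294-224763917) had 3570, 2999 and 4087 in L100 and 8554, 9062 and 9665 in wild type at 15 DAP. Its 10 DAP values were 3748, 5051 and 4139 in L100 and 13011, 13580 and 12117 in wild type, so that wild type was 2.56 and 2.99 times L100. GRMZM2G135960 (chr9:6491554-6492673) had a wild-type excess of 3.36-fold at 15 DAP and 2.41-fold at 10 DAP.

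The bound of 2 divides a continuous range of ratios. Just inside it on the higher side were GRMZM2G127490 with ratios of 2.72 at 15 DAP and 2.01 at 10 DAP, GRMZM2G126260-2 with 2.03 and 2.2, and GRMZM2G382104 with 2.05 and 2.17. Just outside were GRMZM2G177982 with 1.97 and 2.24, GRMZM2G024799 with 1.97 and 4.11, and GRMZM2G148693 with 3.46 and 1.97. On the lower side adh1, GRMZM2G125386 and GRMZM2G043417 (chr1:259465092-259467925) lay just inside, the last with a wild-type excess of 2.01-fold at 15 DAP and 2.06-fold at 10 DAP. GRMZM2G159908, with ratios of 0.295 and 0.502, GRMZM2G105755, with 0.41 and 0.504, and GRMZM2G004160, with 0.509 and 0.294, lay just outside. Models on either side of the bound thus had ratios within a few percent of it at one of the stages.

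The size of the line difference was similar at the 2 stages in most members, within the limits that the rule set. Among the 87 higher members the larger of the 2 stage ratios was a median of 1.32 times the smaller. It was within 1.5 times in 59 of them and within 2 times in 77. Of the 10 that differed more, 3 had the larger ratio at 15 DAP and 7 at 10 DAP. Among the 52 lower members the median was 1.37, with 30 within 1.5 times and 38 within 2 times. The other 14 split into 7 with the larger difference at 15 DAP and 7 with the larger at 10 DAP.

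The members whose ratios differed most between the stages were named by rule. On the higher side GRMZM2G139805 (chr5:3602341-3620014) was 10.3 times higher in L100 at 15 DAP and 2.82 times at 10 DAP. The 10 DAP mean of wild type rested on 1 library: wild type had 39.6, 42.1 and 295 there, against 346, 394 and 321 in L100, and the ratio was 8.66 without wild type 10 DAP replicate 3. AC204539.4_FG001 (chr2:190193677-190217042) had ratios of 3.49 at 15 DAP and 11.2 at 10 DAP. Its wild-type libraries were 215, 210 and 155 at 15 DAP and 83.4, 69.8 and 72.0 at 10 DAP, a rise (log2 difference 1.37, SE 0.19, adjusted p = 0.00031), while the L100 difference was -0.34 (SE 0.17, adjusted p = 0.17). GRMZM2G348125 (chr7:173641758-173642375) had ratios of 3.39 and 10.7, and passed neither stage test.

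On the lower side GRMZM5G841343 (chr6:146227516-146228283) had 126, 56.4 and 178 in L100 and 2125, 1401 and 736 in wild type at 15 DAP. At 10 DAP it was low in both lines, with 28.7, 26.0 and 9.43 in L100 and 35.5, 44.3 and 54.2 in wild type. The wild-type excess was 11.8-fold at 15 DAP and 2.09-fold at 10 DAP, and the gene rose at 15 DAP in L100 (log2 difference 2.43, SE 0.53, adjusted p = 0.0079) and in wild type (4.96, SE 0.52, adjusted p = 9.4e-05). GRMZM2G031138 (chr1:278089381-278093748) had the reverse pattern, with a wild-type excess of 2.5-fold at 15 DAP and 13.9-fold at 10 DAP. In L100 it had 154, 174 and 46.9 at 15 DAP and 56.5, 20.8 and 49.7 at 10 DAP, and in wild type 282, 408 and 247 at 15 DAP and 585, 617 and 566 at 10 DAP. Its rise in L100 (log2 difference 1.56, SE 0.44, adjusted p = 0.025) ended without L100 10 DAP replicate 2 (adjusted p = 0.083), L100 15 DAP replicate 1 (0.08) or L100 15 DAP replicate 2 (0.091). Maize_newGene_6764 (chr7:113651592-113675462) had a wild-type excess of 2.55-fold at 15 DAP and 8.04-fold at 10 DAP, and its L100 15 DAP replicate 3 was at 103 beside 498 and 464.

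The stage comparison within each line asked how the members changed between 10 and 15 DAP, and all 139 members entered the edgeR test over 24941 genes. In L100, 5 of the 87 higher members rose at 15 DAP and 20 fell, and 62 did not pass. Of the 20023 models at or above the floor, 12.5% rose and 13.9% fell in L100 (12.2% and 12.6% of all genes tested). In wild type 7 higher members rose, 15 fell and 65 did not pass, where 17.7% of the models at or above the floor rose and 16.5% fell (16.1% and 15.3% of all genes tested). The higher members thus fell in a share of 23.0% in L100 and 17.2% in wild type, and rose in 5.75% and 8.05%. Their median log2 difference was -0.34 in L100 and -0.24 in wild type, against -0.03 and -0.01 over all genes tested.

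Among the 52 lower members, 14 rose and 2 fell at 15 DAP in L100 and 36 did not pass. In wild type 11 rose, 3 fell and 38 did not pass. These are shares of 26.9% that rose and 3.85% that fell in L100, and of 21.2% and 5.77% in wild type. Of the models at or above the floor, 12.5% rose and 13.9% fell in L100, and 17.7% and 16.5% in wild type. The share of lower members that rose in wild type was thus near that of these models. The median log2 difference was 0.40 in L100 and 0.09 in wild type. These counts depended on single libraries. In L100, without L100 10 DAP replicate 2, 3 higher members rose, 12 fell and 8 lower members rose. Without L100 15 DAP replicate 1, 12 higher members fell and 8 lower members rose, and without L100 10 DAP replicate 3, 3 higher members rose. The 2 lower members that fell in L100 became 1 without L100 10 DAP replicate 1, 2 or 3, L100 15 DAP replicate 2 or 3, or wild type 10 DAP replicate 1 or 3. In wild type 4 higher members rose without wild type 10 DAP replicate 3, and the 3 lower members that fell became 1 without wild type 15 DAP replicate 1 or 2. Leaving out L100 15 DAP replicate 3 gave 6. Scaling by library totals moved the median of all genes tested to -0.33 in both lines. On that scale 3 higher members rose and 31 fell and 8 lower members rose and 6 fell in L100. In wild type these were 4, 26, 9 and 10, and the median of the lower members turned to -0.23. Of the 20023 models at or above the floor, 6401 fell in L100 and 6589 in wild type. Higher members fell in 35.6% in L100 and 29.9% in wild type, against 28.3% and 29.6% of all genes tested. In L100 their excess of falls, over all genes tested and over the models at or above the floor, was thus smaller than on the main scale. In wild type their share was near that of all genes tested and below that of the models at or above the floor. On the main scale the wild-type share, 17.2%, was already near the 16.5% of those models. Lower members rose in 15.4% and 17.3%, against 7.2% and 8.01% of all genes tested.

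**Figure D3:**
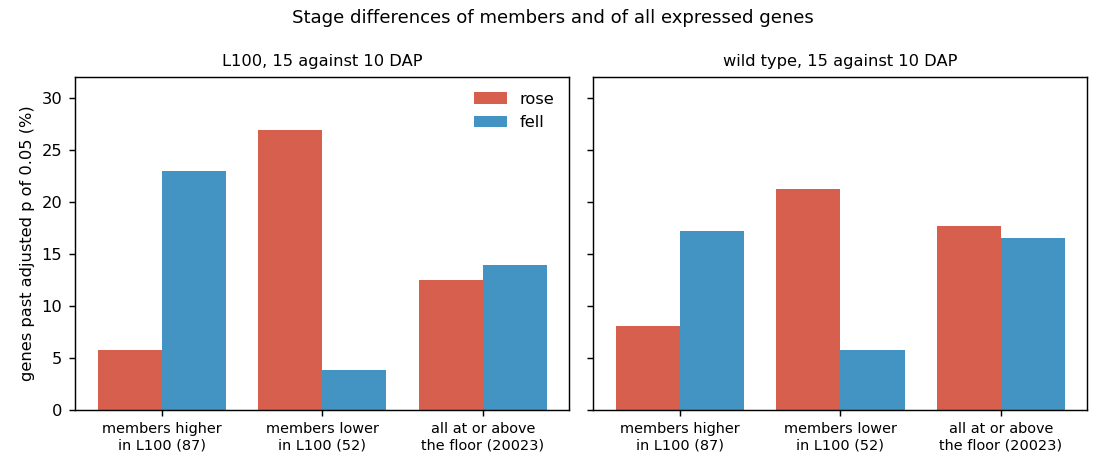
Share of genes (%) that rose (red) or fell (blue) at 15 DAP against 10 DAP at an adjusted p under 0.05 in L100 (left) and in wild type (right), for the 87 higher members, the 52 lower members and all 20023 models at or above the floor. On the scale plotted, higher members fell in 23.0% and rose in 5.75% in L100; scaling by library totals changes these shares, as given in the text.

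Every member that passed in both lines moved in the same direction in both. Of the higher members 13 fell in both lines, 3 rose in both and 56 passed in neither. Of the lower members 9 rose in both lines and 31 passed in neither. The same joint count was not made over all models. The rule also makes opposite movements less likely, since it bounds the line ratio at both stages. The shared direction is therefore not read as a property of the members. A difference that did not pass is not thereby shown to be absent. The stage differences of the lines were not tested against each other in members, since the rule bounds the ratios from which such a test would be made.

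The largest stage differences of higher members, after hsp82, were those of GRMZM2G139797 (chr10:130166505-130168213). It had 2594, 2477 and 1886 in L100 and 828, 471 and 123 in wild type at 15 DAP. Younger seeds, at 10 DAP, had 362, 93.7 and 242 in L100, against 67.8, 69.8 and 61.3 in wild type. It rose by a log2 difference of 3.31 in L100 (SE 0.61, adjusted p = 0.0038) and 2.81 in wild type (SE 0.64, adjusted p = 0.0081). GRMZM2G107276 (chr1:214199449-214202096) also rose in both lines, by 1.43 (SE 0.31, adjusted p = 0.0062) in L100 and 1.61 (SE 0.33, adjusted p = 0.0036) in wild type. GRMZM2G411668 (chr1:27637878-27640310), whose model overlaps another on the opposite strand, rose in L100 (1.48, SE 0.43, adjusted p = 0.026), a call that ended with any 1 of 4 L100 libraries left out, with adjusted p up to 0.077.

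In L100 the steepest fall of a higher member was that of GRMZM2G042347 (chr7:172865188-172866857). In L100 it had 186, 194 and 159 at 15 DAP and 1501, 1531 and 1699 at 10 DAP (log2 difference -3.15, SE 0.47, adjusted p = 0.001). In wild type it had 158, 35.7 and 37.2 at 15 DAP and 318, 246 and 428 at 10 DAP (-2.11, SE 0.47, adjusted p = 0.007). Similar falls in both lines were found for GRMZM2G090264 (chr1:221471167-221472219), with -2.31 in L100 (SE 0.31, adjusted p = 0.00039) and -2.35 in wild type (SE 0.33, adjusted p = 0.00033). GRMZM2G157727-2 (chr1:269388343-269395219) fell by 1.59 on the log2 scale in L100 (SE 0.22, adjusted p = 0.00052) and by 2.20 in wild type (SE 0.24, adjusted p = 7.5e-05). GRMZM2G174396 (chr7:100351766-100353706) fell by 1.57 in L100 (SE 0.34, adjusted p = 0.0065) and by 2.17 in wild type (SE 0.36, adjusted p = 0.0011).

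Lower members that rose in both lines included GRMZM2G043417, by a log2 difference of 1.98 in L100 (SE 0.26, adjusted p = 0.00034) and 1.96 in wild type (SE 0.26, adjusted p = 0.00024). Its signal was 2386, 2878 and 1949 in L100 and 4919, 5401 and 4169 in wild type at 15 DAP. Its 10 DAP signal was 852, 352 and 606 in L100, against 1228, 1226 and 1277 in wild type. The ratio between the lines thus stayed at 0.498 and 0.485 while both lines rose about 4-fold, by 3.99 and 3.88 times. GRMZM2G028218 (chr5:4682837-4688704) rose by 1.5 on the log2 scale in L100 (SE 0.41, adjusted p = 0.023) and 2.66 in wild type (SE 0.40, adjusted p = 0.00078), and its L100 call ended without L100 10 DAP replicate 2 (0.063), L100 10 DAP replicate 3 (0.071) or L100 15 DAP replicate 3 (0.08). Falls of lower members were small or unstable. In L100 they were GRMZM2G135960 (-1.07, SE 0.28, adjusted p = 0.018), which ended without L100 10 DAP replicate 1 or replicate 3 (0.054 each), and GRMZM2G031733 (chr6:85886021-85886359; -1.21, SE 0.38, adjusted p = 0.035), which ended with any 1 of 6 libraries left out, with adjusted p up to 0.093. In wild type, besides fad6, they were GRMZM2G034985-2 (-0.50, SE 0.15, adjusted p = 0.024), which ended with any 1 of 3 libraries left out, with adjusted p up to 0.073, and GRMZM2G164036 (chr2:32667697-32669660; -0.92, SE 0.33, adjusted p = 0.048), which ended with any 1 of 7 left out, with adjusted p up to 0.15.

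Position was the second property that the rule did not use, and the members lay unevenly over the genome. Chromosome 1 held 52 of the 139 members (37.4%), 30 higher and 22 lower, and 15.6% of the models at or above the floor. Chromosomes 8 and 3 held 4 and 6 members, 2.88% and 4.32% of the set, with 9.08% and 10.7% of the models. The bounds of the regions below were set after the positions were seen. From 200 Mb on, chromosome 1 held 44 members, 24 higher and 20 lower, which is 3.27% of its 1347 models at or above the floor, against 0.509% of those in the rest of the genome. Below 200 Mb the same chromosome held 8 members (0.45% of its models). The region thus held 27.6% of the higher and 38.5% of the lower members, and adh1, fad6, hon110, lox3, kn1, MFSP and GNAT15 all lay in it.

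**Figure D4:**
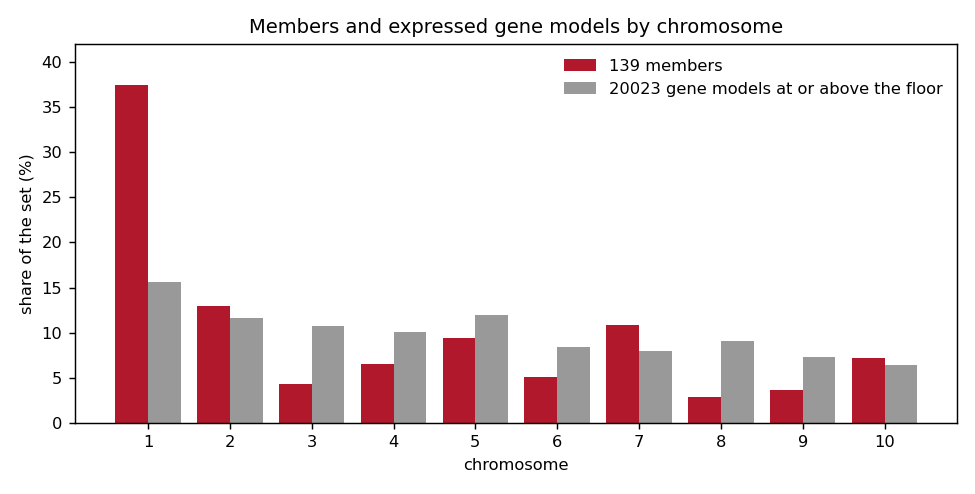
Share of the 139 members (red) and of the 20023 gene models at or above the floor (grey) on each chromosome, in percent. Chromosome 1 holds 37.4% of the members and 15.6% of the models, and chromosomes 3 and 8 hold fewer members than their share of models.

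The non-overlap condition of the rule alone was also met unevenly among models that were not members. This uses a condition of the rule, in regions bounded after the member positions were seen. It is a description and adds no separate support. On chromosome 1 from 200 Mb on, 160 of 1303 such models (12.3%) had lines that did not overlap at both stages in 1 direction, against 4.88% in the rest of the genome. Below 200 Mb the share was 4.97%. The first 10 Mb of chromosome 5 held 9 members, 6 higher and 3 lower (2.82% of its models), and 9.35% of its other models did not overlap. From 30 to 40 Mb on chromosome 2 there were 5 members, 2 higher and 3 lower, among them GRMZM2G135277, GRMZM2G164036 and sam2, and 11.9% of the other models did not overlap. Of 210 windows of 10 Mb on chromosomes 1 to 10 with models at or above the floor, 145 held no member and 7 held 5 or more, with 48 members between them. Both directions occurred in each of these regions.

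Members that were neighbours, defined as lying within 100 kb of each other or with no tested gene between them, formed 8 pairs. In 6 pairs both members differed in the same direction. The gene hon110 and GRMZM2G163912 (chr1:288808620-288813229), 3.03 kb apart, were both lower in L100, by 2.18 and 2.43 times and by 2.46 and 2.94 times at 15 and 10 DAP. GRMZM2G163912 had 759, 791 and 411 in L100 and 1764, 1592 and 1460 in wild type at 15 DAP, and 468, 415 and 443 in L100 and 1190, 1354 and 1351 in wild type at 10 DAP. GRMZM2G395728 and GRMZM2G039278, described above with some of the largest ratios, lay 58.4 kb apart with no tested gene between them. GRMZM2G139805 and GRMZM2G115612 (chr5:3639921-3643207) lay 19.9 kb apart, and GRMZM2G115612 was 5.54 and 4.54 times higher in L100. The lower pair GRMZM2G050851 (chr1:209401529-209404200) and GRMZM2G110306 (chr1:209569388-209585599) lay 165 kb apart with no tested gene between them, but GRMZM2G050851 rose at 15 DAP in L100 (1.56, SE 0.25, adjusted p = 0.0013) and in wild type (1.25, SE 0.24, adjusted p = 0.0026), while GRMZM2G110306 had stage differences of -0.29 (SE 0.18, adjusted p = 0.28) and -0.05 (SE 0.18, adjusted p = 0.86).

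The other 2 pairs of the same direction were GRMZM2G080466 and AC204539.4_FG001, 42.7 kb apart on chromosome 2, and GRMZM2G374074 and GRMZM2G094579, 57.2 kb apart on chromosome 4. GRMZM2G080466 (chr2:190149440-190150994) had 3680, 9250 and 2172 in L100 and 1601, 1548 and 1354 in wild type at 10 DAP, so its spread in L100 was wide there, and its 10 DAP ratio of 3.35 was 1.95 without L100 10 DAP replicate 2. GRMZM2G374074 was 3.33 and 4.25 times higher in L100, or 6.6 times at 10 DAP without wild type 10 DAP replicate 3. The remaining 2 pairs differed in direction. GRMZM2G036640 (chr1:264587415-264590687) was 2.52 and 3.36 times higher in L100, and GRMZM2G037152 (chr1:264593494-264596249), 2.81 kb away on the same strand, was 2.35 and 2.25 times lower, and 3.46 times lower at 10 DAP without L100 10 DAP replicate 2. The values of GRMZM2G037152 were 203, 203 and 202 in L100 and 494, 350 and 584 in wild type at 15 DAP, and another model overlaps it on the opposite strand. GRMZM2G008819 (chr4:179823519-179824274), 2.5 and 2.31 times higher in L100, lay 28.4 kb from hsp22, which was lower.

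A median gap of 1.66-fold at 15 DAP and 1.64-fold at 10 DAP separated the lowest L100 library from the highest wild-type library in the higher members. In the lower members the median gap between the lowest wild-type and the highest L100 library was 1.84-fold at 15 DAP and 1.88-fold at 10 DAP. The gap was below 1.2-fold in 14 higher members at 15 DAP and in 18 at 10 DAP, and in 4 and 9 lower members.

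In 41 members, 24 higher and 17 lower, the highest library of some group was at least 4 times its lowest, a bound chosen after the values were seen. In L100 at 15 DAP this held for 12 of the 52 lower members (23.1%) and for none of the 87 higher ones, against 1.88% of the models at or above the floor. In all 12 replicate 3 was the library apart, low in 11 and high in 1. In L100 at 10 DAP it held for 10 lower members (19.2%) and 8 higher members (9.2%), against 3.73%, and replicate 3 was the library apart in 13 of these 18. The wild-type groups held 12 such higher members at 15 DAP (13.8%, against 1.95%) and 9 at 10 DAP (10.3%, against 1.6%), spread over replicates as the library apart, and no lower member. The rule itself bears on these counts. A stray low L100 library is kept in a lower member but would overlap wild type in a higher member. For a stray low wild-type library the reverse holds. How much of the imbalance came from the rule was not tested.

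In several of these the L100 libraries fell into a higher and a far lower level, both below wild type. GRMZM2G035620 had 1462 and 1693 in L100 15 DAP replicates 1 and 2 and 27.9 in replicate 3, but 24.9 and 29.5 in L100 10 DAP replicates 1 and 2 and 1468 in replicate 3. Wild type had 3075, 2792 and 3382 at 15 DAP and 1640, 2272 and 1637 at 10 DAP. Maize_newGene_1988 showed the same arrangement, with 255, 143 and 2.54 in L100 at 15 DAP and 4.79, 10.4 and 298 in L100 at 10 DAP, against 511, 508 and 547 in wild type at 15 DAP and 350, 450 and 316 in wild type at 10 DAP. Replicate 3 was thus the low library at 15 DAP and the high one at 10 DAP in both genes.

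GRMZM2G064031 was close to 0 in L100 15 DAP replicate 3 (0.036) and L100 10 DAP replicate 2 (0.0019), beside 262 and 367 and beside 77.3 and 144 in the other L100 libraries, and 577, 629 and 611 in wild type at 15 DAP and 339, 376 and 413 in wild type at 10 DAP. GRMZM2G000397 had 594, 554 and 861 in L100 and 2529, 3064 and 2404 in wild type at 15 DAP. The 10 DAP libraries had 474, 383 and 2444 in L100 and 2540, 2986 and 2501 in wild type. L100 10 DAP replicate 3 was there within a few percent of the lowest wild-type library.

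**Figure D5:**
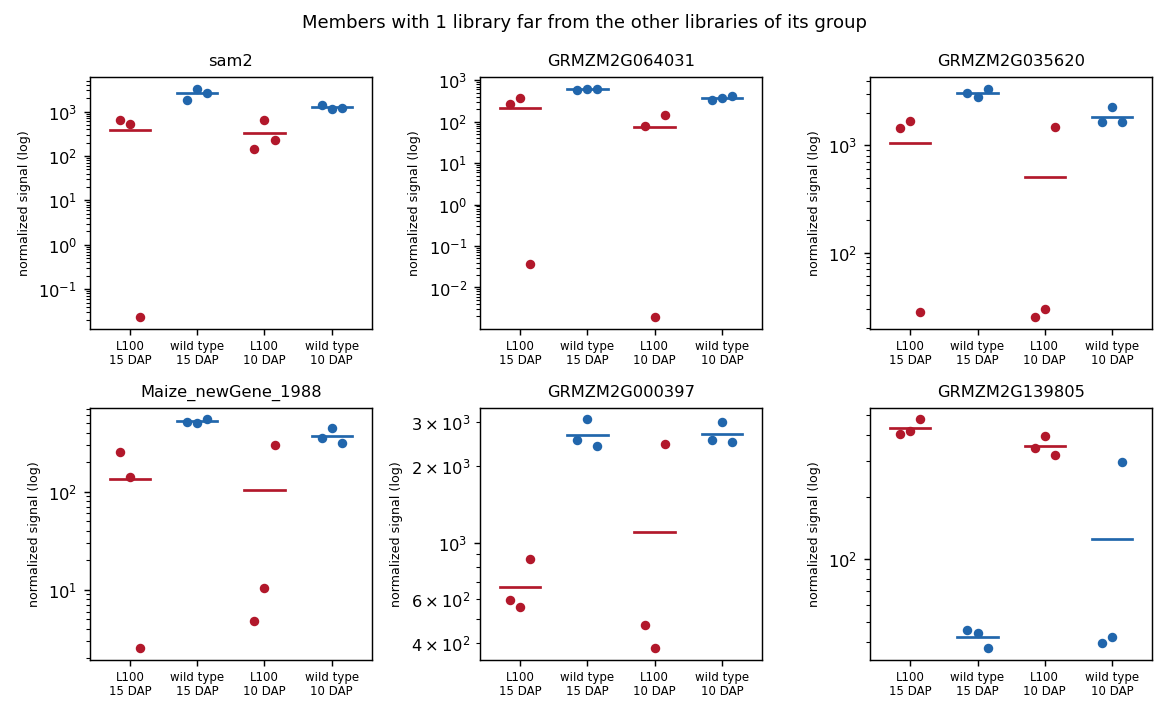
Normalized signal (log scale, a separate range in each panel) of 6 members in L100 (red) and wild type (blue) at 15 and 10 DAP; points are libraries, replicates 1 to 3 from left to right, and lines are group means. Replicate 3 of L100 lies far below the other L100 libraries at 15 DAP in the first 4 panels, and far above them at 10 DAP in GRMZM2G035620, Maize_newGene_1988 and GRMZM2G000397.

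Reference names of any kind were matched to 53 higher members (60.9%) and 36 lower members (69.2%), against 68.0% of the models at or above the floor, and 9 and 6 had an informative name. Models called Maize_newGene in the files numbered 6 among the higher and 5 among the lower members, 6.9% and 9.62%, against 4.85%. Median model lengths were 1505 and 1142 bases, against 1595. In L100 the higher members had a median group mean of 180 at 15 DAP and 226 at 10 DAP, against 49.9 and 73.2 in wild type. The lower members had 138 and 87.4 in L100, against 499 and 340 in wild type, where the median over all models at or above the floor was 295 at 15 DAP and 290 at 10 DAP. Another gene model overlapped the position of 11 members, and for these the reads of the overlapping models may not be told apart.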

How the data were processed

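Each of the 12 libraries had 1 deposited table of 41430 gene models. The expected counts are whole numbers and the normalized signal is an unrounded estimate times 1 factor per library (0.8274 to 1.268), per the file headers and the values; how the authors set the factor is not stated. The authors' deposited FPKM column served only as an alternative. Bowtie 0.12.2 and B73 RefGen_v3 are named, per the submitters' processing notes; the quantifier, annotation and strand setting are not stated there. Coordinates are those of the deposited tables.

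Members were found on the normalized signal. The deposited expected counts, already whole, were tested in R 4.3.3 with edgeR 4.0.16 (TMM scaling, filterByExpr, robust quasi-likelihood fit with 1 mean per group over all 12 libraries), two-sided, with Benjamini-Hochberg adjustment over 24941 genes and a threshold of 0.05. Log2 differences are those of the fit. The labels give the same replicate numbers in all groups; same-numbered libraries did not deviate together, and the block was an alternative only. Alternatives were DESeq2 1.42.0, RLE factors, library totals, no filter, the replicate block, the 2 groups alone, each library left out, and for the rule other floors, ratios and scales. The steps were tested on simulated counts.

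Gene names were looked up in RefSeq (Zm-B73-REFERENCE-NAM-5.0), and no coordinate was taken from it. Named were all members with an informative name, and in each direction the 5 highest levels, the 5 largest smaller ratios, the 3 models on each side of the threshold, the 3 largest stage rises and falls per line, the 3 most different stage ratios, and neighbours. This gave 60 members, of which most are described and 1 is not reported here; members described for their spread within a group were chosen after their values were seen. The members and all lists were chosen with earlier results of these data known.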

Additional observations from a re-analysis of the deposited data

How the results depend on the processing

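The number of higher members, 87, was 87 to 140 with each library left out, 140 without L100 10 DAP replicate 3, 55 with a floor of 34, 274 with a ratio of 1.5, 34 with a ratio of 3, and 172 with overlap allowed. The number of lower members, 52, was 48 to 71 with each library left out, 155 with a ratio of 1.5, 12 with a ratio of 3, and 82 with overlap allowed. With TMM-scaled CPM all 87 higher members were kept among 89, and 49 of the 52 lower ones; with the FPKM column 77 of 87 and 43 of 52 were kept. Lower members whose stage ratios differed over 2-fold numbered 14, and 9 with the FPKM column. With each library left out, in L100 higher members that rose numbered 3 to 6, those that fell 12 to 21, lower members that rose 8 to 14 and those that fell 1 to 2. In wild type these were 4 to 8, 11 to 19, 9 to 14 and 1 to 6. Stage calls over all genes tested ranged from 4612 to 6262 in L100 (6202 with all libraries). In wild type they ranged from 5676 to 8575 (7836 with all libraries). Library totals gave 3, 31, 8 and 6 in L100 and 4, 26 and 10 (higher rose, higher fell, lower fell) in wild type, on a scale that moved the median of all genes to -0.33. With library totals 28.3% of all genes tested fell in L100 and 29.6% in wild type. The fit of the 2 groups alone gave 9 lower members that rose and 0 that fell in L100, and 20 and 7 in wild type. Genes with a line difference, used only as background, numbered 1662 at 15 DAP (615 to 1869 with each library left out, 2888 by DESeq2) and 749 at 10 DAP (236 to 1261, 2007 by DESeq2). The cause of these shifts was not tested. Of 46 stage calls of named members, 29 were ended by no left-out library, and none changed direction under any alternative run.

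Same-numbered libraries had correlations of deviations of -0.106 to 0.0272, and libraries of different numbers -0.0925 to 0.085. No shared deviation by number was seen. With 3 libraries per group this cannot exclude that equal numbers share a plant or batch. With the replicate block, the lower members that fell in L100 numbered 1 in place of 2, and the background line calls numbered 1073 at 15 DAP and 390 at 10 DAP. The median count of a member in a library was 143, and 2 members had 0 counts in some library.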
